A study of Mus musculus with 15 samples.

Results

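The inhibin, activin and follistatin system was described in mouse cumulus cells, which enclose the oocyte within the follicle of the ovary. Its members were the 10 genes Inha, Inhba, Inhbb, Fst, Fstl3, Acvr2a, Acvr2b, Acvr1b, Tgfbr3 and Smad2, taken by their gene symbol among the 15059 symbols of the authors' filtered expression table. Each gene had 1 probe there, and all 10 probes were well above background on all 15 arrays.

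Cells came from B6CBAF1/J mice at 3 stages of oocyte developmental competence, with 5 arrays per stage, each a pool of cells from several mice. NC1 cells surrounded developmentally incompetent prophase I oocytes in unexpanded complexes of 3-week-old juvenile mice. C1 cells surrounded competent prophase I oocytes in unexpanded complexes of 8-week-old adults. C2 cells surrounded fully competent metaphase II oocytes in expanded complexes, flushed from the oviduct of 8-week-old adults primed with pmsg and given hCG, and dispersed with hyaluronidase. No group carried a transgene or deletion per the labels. Age cannot be told apart from the stage between NC1 and C1. Hormone treatment, site of collection and enzyme cannot be told apart from the stage between C1 and C2. The labels name the tissue as ovarian follicles, while the protocols describe cumulus cells.

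Inhibins and activins are dimeric ligands of the TGF-beta family. Inhibins pair the alpha subunit, encoded by Inha, with a beta subunit, and activins pair beta subunits, encoded by Inhba (beta A) and Inhbb (beta B). Granulosa and cumulus cells are a main source of inhibin, which restrains the release of follicle-stimulating hormone by the pituitary, whereas activin promotes it. Follistatin, encoded by Fst, and the related protein of Fstl3 bind activin and keep it from its receptors. Activin is bound by the type II receptors of Acvr2a and Acvr2b, which recruit the type I receptor of Acvr1b, and the signal passes to SMAD2 and SMAD3. Betaglycan, encoded by Tgfbr3, helps inhibin to hold the type II receptors.

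The identity of the samples and the libraries that stood apart were examined first. Between 18366 and 24493 gene probes were well above background per array. The summed signal of 5 granulosa and cumulus markers (Foxl2, Amhr2, Fshr, Nr5a2, Kitl) lay between 6.20 and 6.71 on the log2 scale at NC1, between 6.37 and 6.56 at C1 and between 4.70 and 4.93 at C2, and Kitl was well above background on 0 C2 arrays. All signals are log2 intensities minus the median of the 17323 valid probes of the array. The 5 theca and stroma markers, all detected on all arrays, summed to 3.39 to 5.64 at NC1, 3.19 to 3.93 at C1 and -1.08 to -0.49 at C2. The 8 oocyte markers summed to 3.58 to 5.60 at NC1, 3.62 to 5.28 at C1 and -0.68 to 4.08 at C2, where Zp2 was detected on 0 arrays. Within C2, the oocyte histone H1f8 was at 2.52, 2.91 and 3.04 on the first 3 arrays and at -3.60 and -3.57 on replicates 4 and 5. Markers of red blood cells summed to 6.14 to 8.69 at NC1, above every C1 array (3.34 to 5.40) and every C2 array (3.27 to 4.61), and were highest on NC1 replicates 1 and 2 (8.30 and 8.69). Hbb-bt, a beta globin gene, was 11.1-fold lower at C1 than at NC1 (adjusted p = 0.00129 by limma). The 4 luteal and steroidogenic markers (Star, Cyp11a1, Lhcgr, Akr1c18) summed to -1.12 to -0.36 at NC1, 3.74 to 5.81 at C1 and 7.14 to 7.78 at C2. Star and Lhcgr did not share the rise from C1 to C2. From NC1 to C1, Cyp11a1, which starts steroid synthesis from cholesterol, rose 43.9-fold and Akr1c18, which inactivates progesterone, rose 48.3-fold. Leukocyte markers (4 of 5 had a probe) summed to -1.72 to -0.32 at both prophase I stages and to 1.55 to 1.98 at C2. The mean of each of the 4 was higher at C2 than at C1, but the C2 sum was mostly Cd52 (mean 1.45, against -1.64 for Fcer1g). The 5 oviduct markers summed to between 1.90 and 2.72 and then between 3.32 and 4.20. From C1 to C2 the mean of Krt8 rose from 1.98 to 3.28 and that of Ovgp1 from -0.76 to 1.52. Epcam fell from -2.36 to -3.41 and Tppp3 from -1.43 to -2.44. Foxj1 was detected on 3 NC1 arrays, 1 C1 array and 3 C2 arrays. The 5 cumulus expansion markers summed to at least 4.23 on every C2 array and to at most -1.28 on prophase I arrays, except C1 replicate 4 at 3.15. The part of other cells and of these libraries in the changes below was not tested beyond leaving libraries out. In bulk samples, fewer cells of a type and less RNA per cell cannot be told apart.

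The first comparison, C1 against NC1, addressed the step from incompetent to competent prophase I oocytes. None of the 10 members was called by limma at an adjusted p of 0.01 (0 of 10, against 2.52% of all valid probes, 1.75% higher and 0.768% lower). An unadjusted p under 0.05 was seen for 3 of them. The share of all valid probes at that unadjusted threshold was not counted, so the 3 cannot be set against it. The values of the stages overlapped for all 10 members, where 5.97% of all valid probes had no overlap. The median log2 change of the members was -0.12, against -0.03 over all valid probes. Between these stages the red blood cell sum was lower and the luteal sum higher, as given above, and their part in the members' values was not tested.

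The second comparison, C2 against C1, addressed what changed in adults when cumulus cells of prophase I complexes were set against those of ovulated ones. Of the 10 members 7 were called, 6 lower and 1 higher at C2, against 47.6% of all valid probes (22.2% lower and 25.4% higher). Inhbb, Inha, Inhba, Tgfbr3, Fst and Acvr2a fell and Fstl3 rose, while Acvr2b, Acvr1b and Smad2 were not called. The 5 values of each stage did not overlap for the 7 called members, against 43.9% of all valid probes without overlap. The median log2 change of the members was -1.11, against 0.02 over all valid probes. Of the granulosa markers, the mean log2 signal of Amhr2 was 5.47 at C1 and 1.97 at C2. That of Fshr was 2.38 and -0.73, and that of Nr5a2 4.42 and 2.67. Foxl2 was at 4.03 and 4.06 by its brighter probe (adjusted p = 0.908 by limma). Its dimmer probe fell by 0.94 (adjusted p = 2.89e-06 by limma). Theca and stroma markers were lower at C2 as well. The luteal sum was higher, with Akr1c18 at 1.92 at C1 and 7.08 at C2 and Cyp11a1 at 4.32 and 5.20. Star and Lhcgr went the other way, at 0.92 and -0.13 and at -1.13 and -3.96. The part of any of these markers in the falls of the members was not tested. Between the extreme stages, C2 against NC1, 8 members were called, 7 lower and 1 higher (51.5% of all valid probes, 24.9% lower and 26.5% higher), and the values of 8 did not overlap (48.9%). The F-test over the 3 stages called 7 members (51.6% of all valid probes). The C1 arrays enter both successive comparisons, so the values of each are given side by side below.

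**Figure D1:**
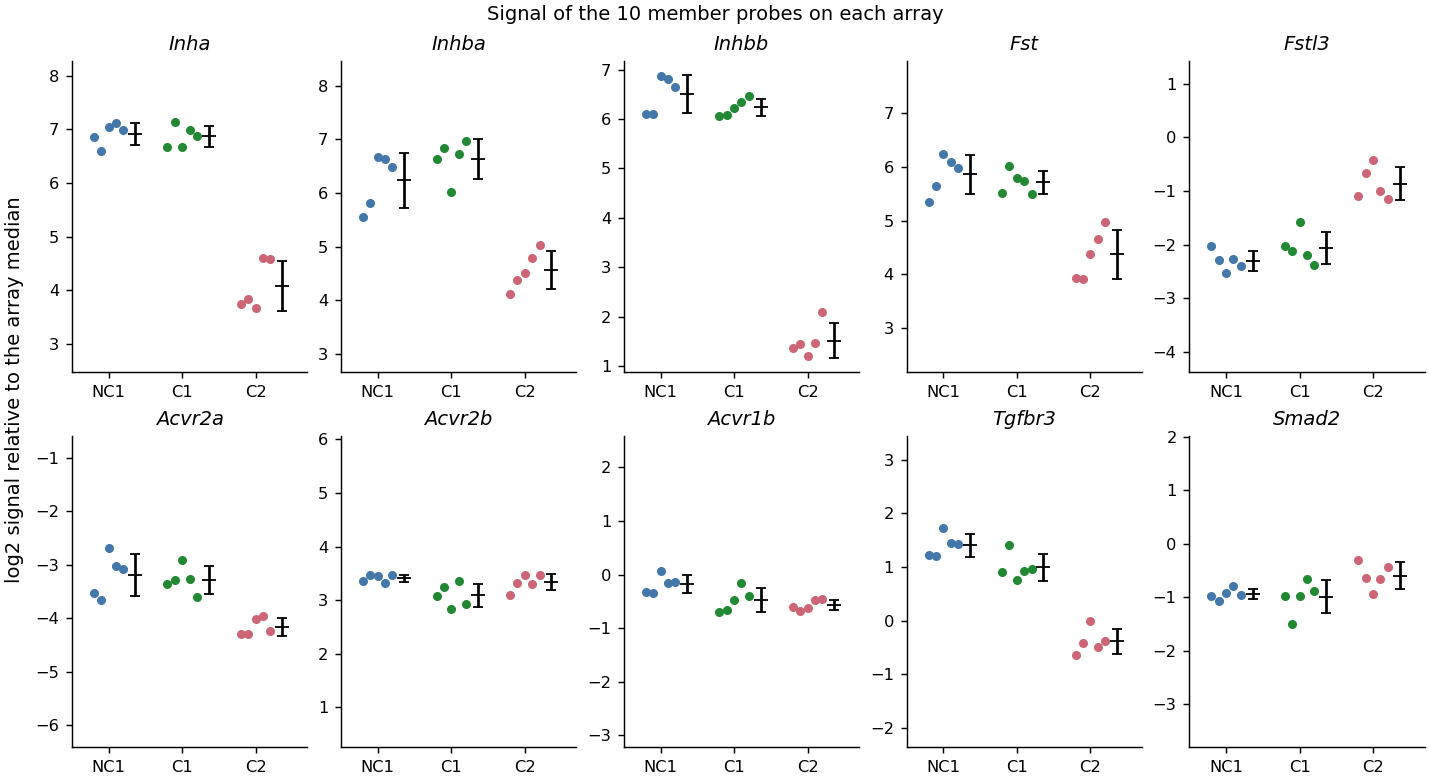
Log2 signal of each member probe relative to the array median (y axis) at NC1, C1 and C2 (x axis), 1 point per array in the order of replicates 1 to 5, with the mean and SD of the 5 arrays in black. The axes have different ranges but at least the same span, and the C2 arrays lie apart from the C1 arrays for the 7 called members.

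The ligand subunits were described first. Inhbb, which encodes the beta B subunit of inhibin B and activin B, showed the largest change of the members (probe A_55_P2096422). Its log2 signal was 6.11, 6.10, 6.87, 6.82 and 6.64 on the NC1 arrays and 6.07, 6.09, 6.21, 6.35 and 6.47 on the C1 arrays. It was 1.36, 1.45, 1.20, 1.47 and 2.11 on the C2 arrays. Both prophase I stages overlapped, and every C2 array was far below them. The log2 change from NC1 to C1 was -0.27 (adjusted p = 0.518 by limma). From C1 to C2 it fell by 4.72 (95% interval -5.11 to -4.33), which is 26.4-fold lower (adjusted p = 7.11e-12), and 28 of the 17323 valid probes fell further.

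Inha encodes the alpha subunit that both inhibins share (probe A_52_P401484). On the log2 scale its signal was 6.85, 6.59, 7.05, 7.12 and 6.98 at NC1 and 6.67, 7.13, 6.67, 6.99 and 6.88 at C1. At C2 it was 3.74, 3.83, 3.67, 4.59 and 4.59. The prophase I stages covered the same range, and at C2 replicates 4 and 5 were above the other 3 arrays, yet below every C1 array. The log2 change was -0.05 from NC1 to C1 (adjusted p = 0.938), and from C1 to C2 it fell by 2.78 (interval -3.18 to -2.39), a signal 6.89-fold lower (adjusted p = 2.76e-09).

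Inhba encodes the beta A subunit of inhibin A and activin A (probe A_51_P239750). Its log2 signal was 5.56, 5.81, 6.67, 6.64 and 6.49 at NC1, and 6.64, 6.84, 6.01, 6.74 and 6.97 at C1. At C2 it was 4.11, 4.37, 4.51, 4.79 and 5.03. Of the 3 subunits it was the most scattered at prophase I, with NC1 replicates 1 and 2 and C1 replicate 3 below the rest. The log2 change from NC1 to C1 was 0.41 (interval -0.10 to 0.91, adjusted p = 0.438), and it was 0.24 without NC1 replicate 1 and 0.04 without NC1 replicates 1 and 2, whereas from C1 to C2 it fell by 2.08 (interval -2.59 to -1.57), or 4.22-fold (adjusted p = 1.44e-06).

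The stretches upstream of the 3 subunit genes are shown because the 3 genes fell together from C1 to C2. Each has the 250 bases before the annotated start, 5′ to 3′ on the strand of the gene, from RefSeq on assembly GRCm38.p6. Capitals mark the SMAD box, CAGAC on either strand (GTCTG on the other). The Inha stretch is chr1:75507359-75507608 on the plus strand, that of Inhba is chr13:16011601-16011850 on the plus strand, and that of Inhbb is chr1:119422249-119422498 on the minus strand.
Inha: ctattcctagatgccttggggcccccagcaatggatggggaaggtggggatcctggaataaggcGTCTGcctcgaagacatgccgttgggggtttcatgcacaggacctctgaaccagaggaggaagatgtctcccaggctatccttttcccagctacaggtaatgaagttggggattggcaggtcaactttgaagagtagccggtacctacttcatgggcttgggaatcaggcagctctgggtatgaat
Inhba: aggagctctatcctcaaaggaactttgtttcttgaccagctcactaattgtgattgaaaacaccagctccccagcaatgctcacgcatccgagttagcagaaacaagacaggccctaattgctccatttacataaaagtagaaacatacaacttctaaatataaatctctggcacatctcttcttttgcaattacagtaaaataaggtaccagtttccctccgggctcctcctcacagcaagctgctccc
Inhbb: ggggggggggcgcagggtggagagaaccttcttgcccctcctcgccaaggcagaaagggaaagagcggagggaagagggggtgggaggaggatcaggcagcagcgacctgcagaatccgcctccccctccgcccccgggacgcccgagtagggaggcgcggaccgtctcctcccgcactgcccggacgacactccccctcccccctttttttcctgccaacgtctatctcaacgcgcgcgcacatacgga
The 3 stretches differ in composition, with 53.6% G and C for Inha, 43.2% for Inhba and 68.0% for Inhbb, against a median of 52.4% over 32851 promoters. Inha holds 1 SMAD box, from base -186 to -182 before the start, and the stretches of Inhba and Inhbb hold 0. A SMAD box occurs in 42.2% of all promoters in this window. Of the members, 7 had a sequence in the table, and 4 of these (Inha, Fstl3, Acvr2a and Acvr2b) hold at least 1 SMAD box. The cAMP response element TGACGTCA (1.55% of all promoters), its shorter form TGACG (17.8%), which the longer motif contains, the NR5A site AAGGTCA (4.08%) and the GATA site AGATAA (9.99%) were searched on both strands and found in 0 of the 7. A match is a description of letters, and its absence holds for these letters in this window only.

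The subunits did not fall by the same factor. The difference between 2 members on the same array does not depend on how the arrays are scaled, and its change between stages was compared by an exact two-sided permutation test over 252 splits, adjusted over 14 tests on 7 pairs. The smallest p possible was 0.007937. Values of different probes are not compared as levels, only their changes. Inhba minus Inhbb was 0.57, 0.75, -0.20, 0.39 and 0.50 on the C1 arrays and 2.75, 2.92, 3.31, 3.32 and 2.92 on the C2 arrays. The difference widened by 2.64 ± 0.20 on the log2 scale (SE, exact permutation, adjusted p = 0.0185), so that Inhbb lost more signal than Inhba, and every C2 value lay above every C1 value. Inha minus Inhbb widened by 1.94 ± 0.18 (adjusted p = 0.0185, exact permutation). Inha minus Inhba changed by -0.71 ± 0.17 (adjusted p = 0.0185, exact permutation), so the alpha subunit fell further than beta A. The order of the falls was thus Inhbb, Inha and Inhba, and each neighbouring pair in it differed by this test.

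From NC1 to C1 none of the 7 differences passed an adjusted p of 0.05. The nearest was Inhba minus Inhbb, which was -0.55, -0.29, -0.20, -0.18 and -0.15 at NC1. It was higher on 4 of 5 C1 arrays than on any NC1 array, with a change of 0.68 ± 0.18 (p = 0.0317, adjusted p = 0.0556, exact permutation). Inha minus Inhba (-0.46) and Fst minus Inhba (-0.55) had adjusted p of 0.0889 and 0.0741 by the same exact permutation test. These 3 differences passed without C1 replicate 3 (0.83, -0.56 and -0.73, adjusted p = 0.0139, 0.0222 and 0.0139 by exact permutation), and also with limma in place of the permutation test (adjusted p = 0.00164, 0.0311 and 0.0109).

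**Figure D2:**
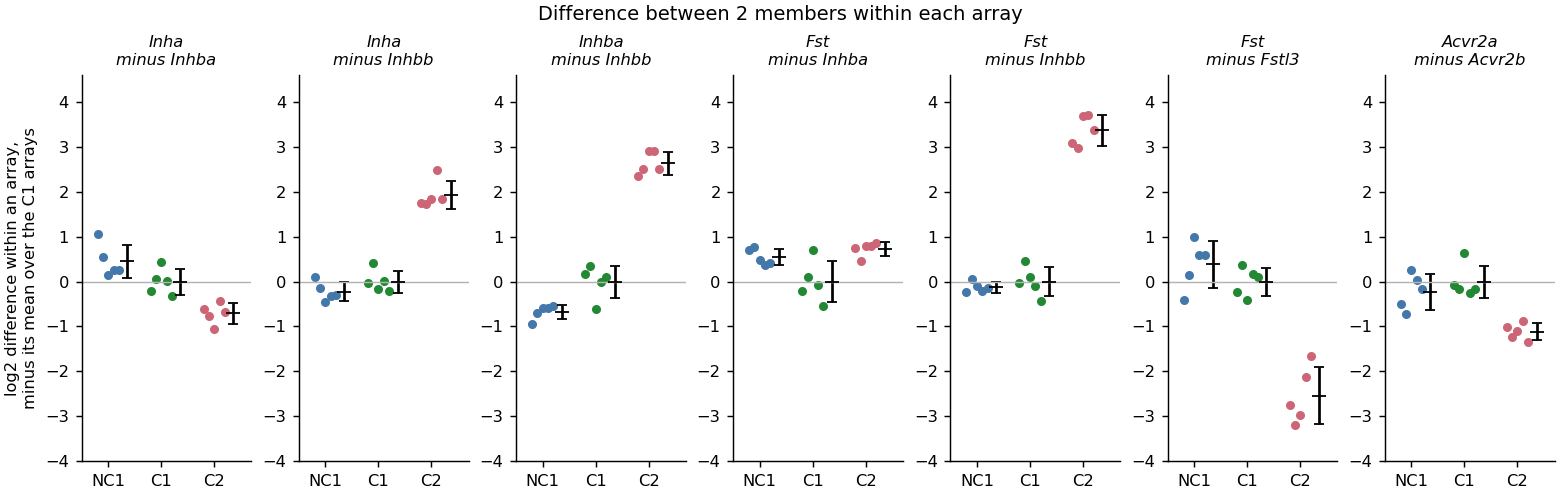
Difference of the log2 signals of 2 members on the same array, minus its mean over the 5 C1 arrays (y axis), for 7 pairs at NC1, C1 and C2 (x axis), 1 point per array with the mean and SD in black. Inhba minus Inhbb, Inha minus Inhbb and Fst minus Inhbb lie higher on all C2 arrays than on any C1 array. Inha minus Inhba, Fst minus Fstl3 and Acvr2a minus Acvr2b lie lower, and Fst minus Inhba overlaps.

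The activin-binding proteins moved in opposite directions at C2. Fst encodes follistatin (probe A_55_P2394308), and its log2 signal was 5.35, 5.65, 6.24, 6.09 and 5.98 at NC1 and 5.51, 6.02, 5.80, 5.74 and 5.50 at C1. At C2 it was 3.94, 3.91, 4.37, 4.66 and 4.97, below every prophase I array. The log2 change from NC1 to C1 was -0.15 (adjusted p = 0.807). From C1 to C2 it fell by 1.35 (interval -1.79 to -0.91), or 2.54-fold (adjusted p = 3.40e-05).

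Fstl3, for follistatin-like 3, was the only member that rose (probe A_55_P2143522). Its log2 signal was -2.02, -2.28, -2.52, -2.27 and -2.39 at NC1, then -2.03, -2.12, -1.57, -2.20 and -2.38 at C1. At C2 it was -1.08, -0.66, -0.42, -1.0 and -1.15, above all prophase I arrays. The log2 change from NC1 to C1 was 0.24 (adjusted p = 0.521) and from C1 to C2 it was 1.20 (interval 0.85 to 1.55), a signal 2.29-fold higher (adjusted p = 9.09e-06).

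The difference Fst minus Fstl3 changed by -2.55 ± 0.32 from C1 to C2 (exact permutation, adjusted p = 0.0185). Against the subunits, Fst fell less than Inhbb, without overlap between the stages, with a change of the difference of 3.37 ± 0.21 (adjusted p = 0.0185, exact permutation). It also fell less than Inhba, with a change of 0.73 ± 0.22, but here the values overlapped (adjusted p = 0.0317, exact permutation). That call was lost when any of C2 replicates 1, 3, 4 or 5 was left out (adjusted p = 0.0556, change 0.70 to 0.73).

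Among the receptors, the type II receptor Acvr2a (probe A_66_P113760) had a low log2 signal of -3.53, -3.65, -2.68, -3.02 and -3.08 at NC1, and of -3.37, -3.28, -2.91, -3.26 and -3.61 at C1. At C2 it was -4.29, -4.29, -4.01, -3.95 and -4.24. All C2 arrays were below all prophase I arrays. The log2 change was -0.09 from NC1 to C1 (adjusted p = 0.856), and from C1 to C2 it fell by 0.87 (interval -1.24 to -0.51), or 1.83-fold (adjusted p = 3.54e-04). It was no longer called from C1 to C2 with the median over all gene probes (-0.56, adjusted p = 0.0286), with the authors' deposited table (-0.56, adjusted p = 0.0285) or with quantile normalization (-0.57, adjusted p = 0.0128).

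Acvr2b, the other type II receptor (probe A_55_P2012815), had a log2 signal of 3.35, 3.46, 3.45, 3.33 and 3.47 at NC1 and 3.08, 3.26, 2.84, 3.36 and 2.93 at C1. At C2 it was 3.10, 3.33, 3.46, 3.30 and 3.48. The C1 arrays overlapped both other stages. Its log2 changes were -0.32 from NC1 to C1 (adjusted p = 0.127) and 0.24 from C1 to C2 (interval 0.01 to 0.48, adjusted p = 0.0712). Acvr2a minus Acvr2b changed by -1.12 ± 0.18 between C1 and C2 (exact permutation, adjusted p = 0.0185), so that the type II receptors changed unequally.

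Acvr1b encodes the type I activin receptor (probe A_52_P373893). Its log2 signal was -0.33, -0.35, 0.07, -0.16 and -0.13 at NC1, -0.70, -0.66, -0.47, -0.15 and -0.40 at C1, and -0.61, -0.68, -0.62, -0.47 and -0.46 at C2. The C1 arrays overlapped both other stages. The log2 change was -0.30 from NC1 to C1 (adjusted p = 0.187) and -0.09 from C1 to C2 (interval -0.34 to 0.16, adjusted p = 0.546). Only C2 against NC1 was called (-0.39, adjusted p = 0.00875), and this was lost under 18 of 30 alternatives, with adjusted p up to 0.496.

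Tgfbr3 encodes betaglycan, the co-receptor of inhibin (probe A_65_P16059). The NC1 arrays read 1.22, 1.20, 1.72, 1.45 and 1.44 in log2 signal, and the C1 arrays 0.90, 1.41, 0.76, 0.93 and 0.96. The C2 arrays read -0.64, -0.41, -0.01, -0.49 and -0.38. C1 replicate 2 lay among the NC1 arrays, the other C1 arrays lay below them, and all C2 arrays lay below C1. The log2 change from NC1 to C1 was -0.41 (adjusted p = 0.129), and from C1 to C2 it fell by 1.38 (interval -1.68 to -1.07), or 2.60-fold (adjusted p = 4.61e-07).

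Smad2 encodes the mediator that receptors for activin phosphorylate (probe A_55_P1999710). Its log2 signal was -0.97, -1.06, -0.93, -0.78 and -0.95 at NC1, -0.97, -1.49, -0.97, -0.65 and -0.88 at C1, and -0.30, -0.64, -0.94, -0.66 and -0.43 at C2. The stages overlapped. Its log2 change was -0.05 from NC1 to C1 (adjusted p = 0.911) and 0.40 from C1 to C2 (interval 0.09 to 0.71, adjusted p = 0.0277). From C1 to C2, Smad2 was not called under 29 of 30 alternatives. Among these alternatives, which kept the threshold of 0.01, Smad2 was called only without C1 replicate 4 (0.48, adjusted p = 0.00998 by limma). That is the array with high expansion markers. At the alternative threshold of an adjusted p of 0.05, Smad2 was called as well.

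**Figure D3:**
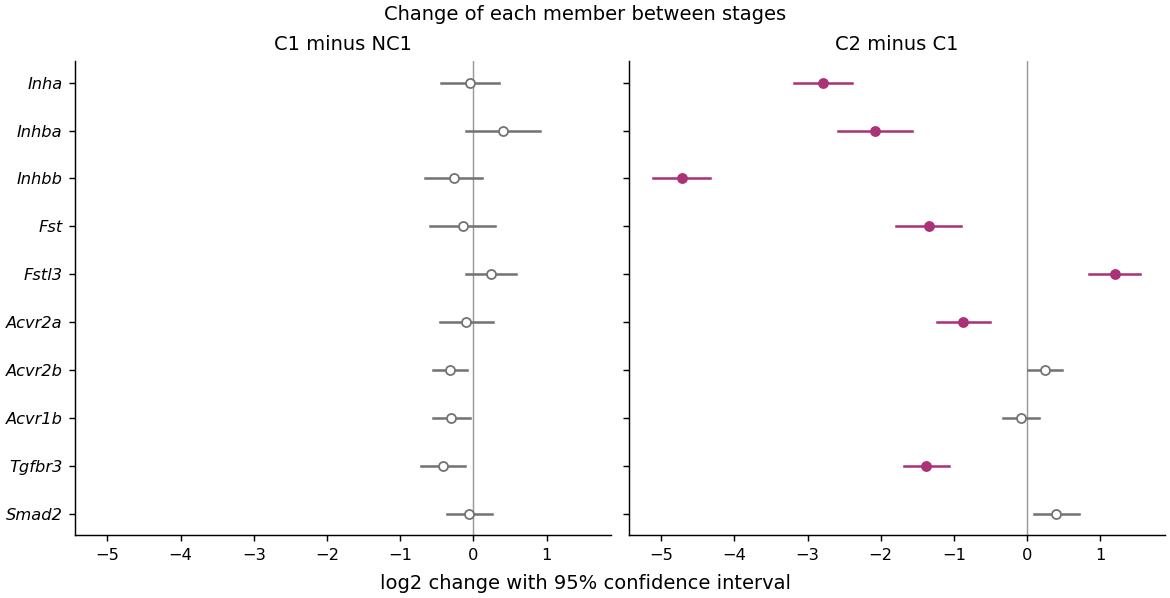
Log2 change of each member (x axis) from NC1 to C1 on the left and from C1 to C2 on the right, with the 95% confidence interval as a line. Filled points passed an adjusted p of 0.01 by limma, and these are 0 of 10 members on the left and 7 of 10 on the right.

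The 15 arrays lay on 4 slides, each with all 3 stages. Since the C1 and C2 values of the 7 called members did not overlap, their direction had to be the same on all 4 slides. Only the size of the difference within slides is therefore described. Within slides the C2 minus C1 difference ranged from -5.27 to -3.97 for Inhbb, -3.21 to -2.31 for Inha and -2.46 to -1.71 for Inhba. It ranged from -1.86 to -0.80 for Fst, -1.54 to -0.97 for Tgfbr3, -1.38 to -0.40 for Acvr2a and 0.49 to 1.95 for Fstl3. Without C2 replicates 4 and 5, the arrays low in oocyte markers, the 7 calls remained and the log2 change of Inha was -3.12, that of Inhbb -4.90 and that of Fst -1.64. Without NC1 replicates 1 and 2, again 0 members were called between NC1 and C1.

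Every change is stated against the valid-probe median of its array. With the median over all gene probes the median change of all valid probes was -0.14 from NC1 to C1 and 0.33 from C1 to C2, with the authors' table -0.14 and 0.33, and with spike-in probes 0.13 and -0.09. Of all probes called from C1 to C2, 4400 of 8253 were higher here, 5299 of 7094 with the median over all gene probes, 5294 of 7089 with the authors' table and 1606 of 3861 with spike-in probes. No called member changed direction under these scalings.

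The other genes of activin, inhibin and TGF-beta signalling were taken from a list of 35, of which 24 had a valid probe. From NC1 to C1, 0 of 24 were called by limma, against 2.52% of all valid probes. The median log2 change was -0.14, against -0.03 over all valid probes. An unadjusted p under 0.05 was seen for 7, but the share of all valid probes at that threshold was not counted. The 7 therefore cannot be set against it. From C1 to C2, 15 of 24 were called, 12 higher and 3 lower, against 47.6% of all valid probes. The median log2 change was 0.56, against 0.02 over all valid probes. The split was 14 higher and 2 lower with the median over all gene probes and with the authors' table, and 6 and 3 with spike-in probes.

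The highest changes were those of Pcsk5 and Pmepa1. Pcsk5, a proprotein convertase that cleaves precursors of the TGF-beta family, rose by 3.74 on the log2 scale (adjusted p = 1.58e-09), from a mean of 1.24 ± 0.65 (SD, n = 5) at C1 to 4.98 ± 0.19 at C2. Pmepa1, a target and inhibitor of the pathway that holds back SMAD2 and SMAD3, rose by 2.64. Skil, which encodes the SMAD corepressor SnoN, rose by 2.37. Tgfb1, the ligand, rose by 2.26, and its type I receptor Tgfbr1 by 1.91. The type I receptor Acvr1 rose by 0.96. With spike-in probes the calls of Acvr1, Furin, Ppm1a, Smurf2, Tgif1 and Wfikkn1 were lost.

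The 3 genes that fell were Tgfb3, Pcsk6 and Tdgf1. The ligand Tgfb3 fell by 2.15 (adjusted p = 2.24e-08), from a mean of 2.03 at C1 to -0.12 at C2. The convertase Pcsk6 fell by 1.66 (adjusted p = 3.82e-04). Tdgf1, which encodes the activin antagonist and co-receptor Cripto, fell by 1.18 (adjusted p = 0.00843), and this call was lost under 18 of 30 alternatives. The convertases thus moved both ways, since Furin rose 2.15-fold, as did the TGF-beta ligands.

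Of the intracellular mediators, Smad3 had a log2 change of -0.44 (adjusted p = 0.0127) and Smad4 one of 0.20 (adjusted p = 0.148), and neither was called. Smad3 was called under 6 of 30 alternatives, among them quantile normalization, and Smad4 under 0. The inhibitory Smad7 had a change of 0.56 (adjusted p = 0.0442) and was called under 2 of 30 alternatives. The ubiquitin ligases Smurf1 and Smurf2 rose by 1.44 and 0.55, the phosphatase gene Ppm1a rose by 0.97 and the corepressor Tgif1 by 0.56. Besides spike-in probes, leaving out C2 replicates 4 and 5 lost the calls of Smurf2 and Tgif1, and quantile normalization lost that of Tgif1. Smurf2 probe A_55_P1976057 was called too (0.72, adjusted p = 0.00265 by limma), while A_55_P2124619 was not (0.58, adjusted p = 0.150 by limma). Foxl2, a transcription factor of granulosa cells, had probes that disagreed, with a change of 0.03 (adjusted p = 0.908) for the brighter and of -0.94 (adjusted p = 2.89e-06) for the dimmer.

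**Figure D4:**
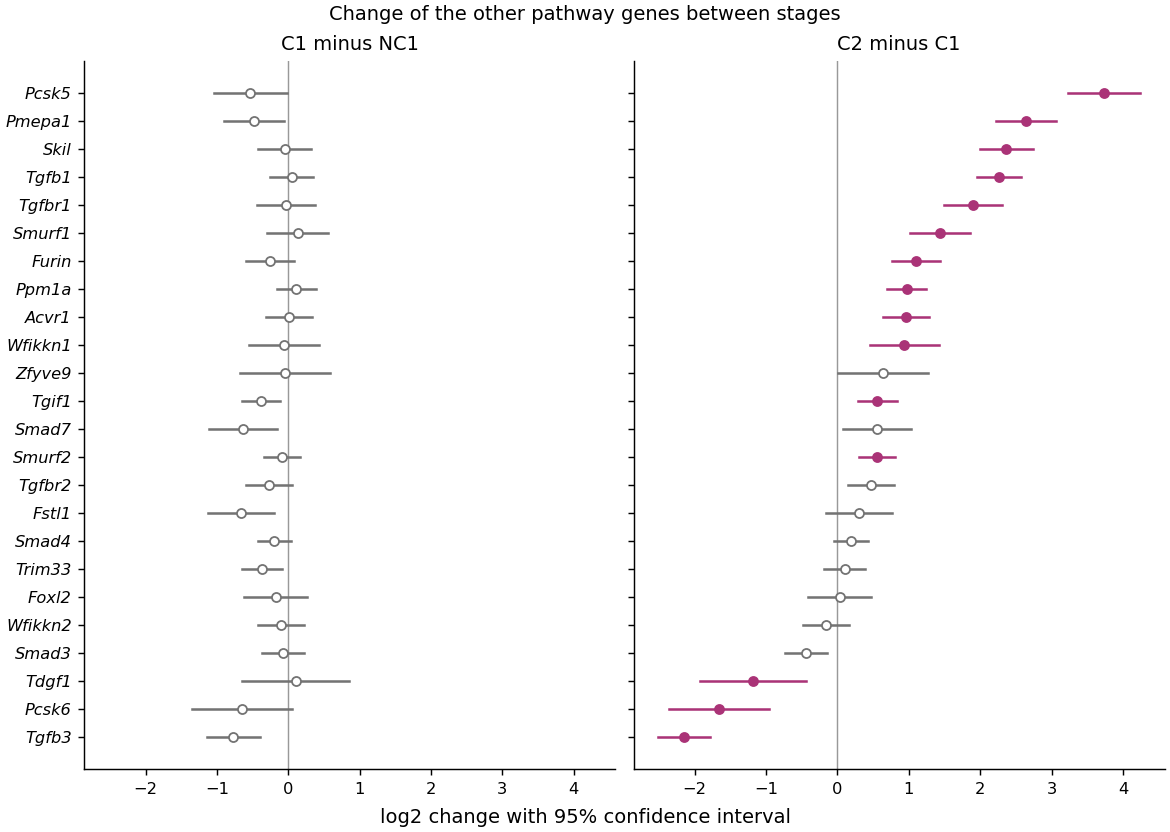
Log2 change (x axis) of the 24 other pathway genes with a valid probe, ordered by the change from C1 to C2, with 95% confidence intervals, from NC1 to C1 on the left and from C1 to C2 on the right. Filled points passed an adjusted p of 0.01 by limma, and these are 0 genes on the left and 15 on the right, 12 of them higher.

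The remaining 11 genes of the list had no valid probe. Acvr1c, which encodes ALK7, another type I receptor, was not well above background at NC1 and C1 on 1 of its probes (0 of 5 arrays each) and detected on all 5 C2 arrays. This probe was at least 2.68-fold higher at C2 than at C1, a bound set by the dimmest detected probes of the C1 arrays. The other Acvr1c probe was detected on 1, 1 and 5 arrays of NC1, C1 and C2. The TGF-beta co-receptor Eng was detected on 5, 5 and 2 arrays, and the ligand Tgfb2 on 5, 3 and 0 arrays by 1 probe and 5, 4 and 3 by the other. The further activin subunit genes Inhbc and Inhbe were detected on 0 arrays and on 2, 1 and 1 arrays, and Mstn, Bambi and Foxh1 on 0 arrays. Gdf11 was detected on 1 C1 array, Ski on 1 NC1 and 1 C1 array, and Igsf1 by 1 of 3 probes, on 4, 2 and 0 arrays.

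The genes whose pattern was most like that of the ligand subunits and follistatin were listed by Pearson's r over the 15 arrays, which share the large difference of C2. For Inhbb they were Sema3g (0.997), St3gal5 (0.997) and Slc35g1 (0.996), and for Inha they were Cnmd (0.994), Mlec (0.993) and Prnp (0.993). For Fst they were Maco1 (0.977), Fam171b (0.975) and Panx1 (0.972), and for Inhba they were Ppm1l (0.975), Mia3 (0.967) and Letm1 (0.965). The number of valid probes with r above 0.9 was 1659 for Inhbb, 1507 for Inha, 722 for Fst and 433 for Inhba.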

How the data were processed

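Cumulus cell RNA of 15 pools (5 per stage) was labelled with 1 dye and hybridized to Agilent arrays with 39429 gene probes. The authors deposited scanner output with background-subtracted intensity per spot (Feature Extraction, 10.7.1.1 per the file headers, 10.5.1.1 per the submitters' processing notes), not scaled between arrays. A table of log2 values, scaled per array by the authors, was deposited beside it and used for the rule and as an alternative.

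Control spots and outlier spots were left out, spots of a probe were averaged and log2 was taken. The array median over the valid probes was subtracted. A probe was valid when well above background in at least 4 of 5 arrays of each stage, which left 17323 probes. The number of arrays limits the precision. Stages were compared with limma 3.58.1 in R 4.3.3 by 1 model over the 15 arrays, two-sided, with the Benjamini-Hochberg adjustment over all valid probes at 0.01, and pairs of members by exact permutation at 0.05. Pools came from separate groups of mice per the methods of the study. On data simulated for C2 against C1 with 17323 probes, 50 probes were changed at each size. The fit recovered 12% of those changed by 0.5 on the log2 scale, 72% at 1 and 98% at 2. In the data 8253 probes were called from C1 to C2, so these shares do not give the power of that comparison.

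Members and lists were chosen with earlier results of these data known. Named genes are the members, the 5 highest and up to 5 lowest called genes of the list, its genes without a valid probe, the 3 genes most correlated with each of Inha, Inhba, Inhbb and Fst, and cell type markers. Other list genes, and the bound for Acvr1c, were added after their values were seen. For list genes with several probes the brightest was used. Alternatives covered scaling, background, filters, slides, the replicate block and leaving out arrays.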

Additional observations from a re-analysis of the deposited data

Results flagged for a closer look

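A second probe of Acvr2a (A_52_P664656), outside the authors' filtered table, was well above background on 4 arrays, 2 of NC1, 2 of C1 and 0 of C2. It was set aside for a closer look because it holds signal that the comparisons did not use. The NC1 arrays had a mean log2 signal of -5.03 ± 0.75 (SD, n = 5), the C1 arrays one of -4.53 ± 0.37 and the C2 arrays one of -5.44 ± 0.37, near the detection limit, and no test was made. A second probe of Acvr1b (A_55_P2123957) was well above background on 0 arrays. By Dixon's ratio (critical value 0.71 for 5 arrays), no array was an outlier in any of the 30 groups of 5 values of a member and stage. The highest ratio was 0.702, for Inhbb on C2 replicate 5. The ratio takes 1 extreme array per group, so it cannot flag 2 arrays that stand apart together.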

How the results depend on the processing

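Of 30 contrasts (10 members in 3 comparisons), 26 kept their side of the threshold under all 30 alternatives, 4 did not (Acvr1b and Acvr2a for C2 against NC1, Acvr2a and Smad2 for C2 against C1) and 0 reversed a call. Acvr2a for C2 against NC1 was lost with spike-in probes (-0.91, adjusted p = 0.0132). The count of members called from C1 to C2 was 6 to 8, and from NC1 to C1 it was 0 throughout. By the F-test it was 6 to 10, with 10 at an adjusted p of 0.05. The list had 9 calls from C1 to C2 with spike-in probes against 15, and with single arrays left out 14 to 16. Over all 17323 valid probes, the calls from C1 to C2 numbered 3861 with spike-in probes against 8253. From NC1 to C1 the list had 1 call at an adjusted p of 0.05 (Tgfb3), and 0 to 1 with single arrays left out, which was Tgfb3 without C1 replicate 2 (-0.85, adjusted p = 0.00966) and Pcsk5 without C1 replicate 4 (-0.80, adjusted p = 0.00548). The cause of these differences was not tested. Without C2 replicates 4 and 5, chosen after seeing the data, the list had 12 calls. Pair differences passing numbered 6 to 10 with single arrays left out and 10 with limma. Replicate numbers mark different mice, and deviations of same-numbered arrays correlated at -0.24 to 0.35. With the replicate number as a block, 7, 0, 7 and 8 members were called (F-test, C1 against NC1, C2 against C1, C2 against NC1), 0 and 15 list genes, and 10 pair differences. Scan time coincided with the slide, so it was not run apart, and normexp was run on median signals. Low signals such as those of Acvr2a limit what can be seen.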

Other observations

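Within stages, some arrays ranked alike for several members. At NC1, replicates 1 and 2 were the lowest arrays for 8 of 10 members (Inha, Inhba, Inhbb, Fst, Acvr2a, Acvr1b, Tgfbr3 and Smad2), as they were for 25.2% of all valid probes. The same arrays were the highest of NC1 in the summed log2 signal of theca and stroma markers (5.64 and 5.02, against 3.39 to 3.87 on the others) and of oocyte markers (5.60 and 5.30, against 3.58 to 4.22). At C2, replicates 4 and 5 were the highest arrays for 5 of 10 members (Inha, Inhba, Inhbb, Fst and Acvr1b), as they were for 17.6% of all valid probes, and their oocyte markers summed to -0.68 and -0.44, against 3.73 to 4.08 on the others. Other members did not share these ranks. NC1 replicate 1 was the highest of its stage for Fstl3, and at C1 replicate 3 was the lowest for Inhba and Tgfbr3 but the highest for Fstl3 and Acvr2a. These patterns were seen in the data and were not tested.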
